A study of Homo sapiens with 6 samples.

Results

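The genes described here are 40 cytosolic and mitochondrial heat shock chaperone genes, picked by symbol from the 27470 gene rows of a count table. They comprise 2 heat shock factors, 9 chaperones of the HSP70 and HSP110 families, 6 J-domain proteins, 2 BAG proteins, 3 HSP90 chaperones, 5 HSP90 co-chaperones, 2 small heat shock proteins, the 2 parts of the mitochondrial chaperonin, the 8 subunits of the cytosolic chaperonin TRiC and the polyubiquitin gene UBB. All 40 were found and all 40 passed the filter on low counts, which kept 12233 genes. The libraries came from 22Rv1-ABHD5 cells. 22Rv1 is a line of human prostate cancer cells that grow without androgen, here with an ABHD5 transgene that doxycycline (Dox) induces, delivered by lentivirus and selected with G418. Without Dox and with Dox there were 3 libraries each, taken after 48 h of culture, and both conditions carried the transgene. ABHD5 encodes a co-activator of the lipase that starts triglyceride breakdown at lipid droplets. Parent cells given Dox were not analysed here, so an effect of Dox itself and one of ABHD5 cannot be told apart.

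Heat shock chaperones bind unfolded or partly folded proteins and help them fold, refold, assemble or reach degradation. HSP70 works in a cycle with J-domain proteins, which deliver clients and start ATP hydrolysis, and with nucleotide exchange factors such as the HSP110 and BAG proteins, which let the client go. HSP90 acts later, with co-chaperones, on clients such as kinases and steroid hormone receptors, while TRiC folds actin and tubulin and the mitochondrial chaperonin folds imported proteins. The transcription factor HSF1 drives many of these genes after heat or other protein damage by binding heat shock elements, which are inverted repeats of the unit GAA.

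With Dox, 11 of the 40 chaperone genes fell and 1 rose at an adjusted p under 0.05 (quasi-likelihood test of edgeR, adjusted by Benjamini and Hochberg's method over all 12233 genes, and called the edgeR adjusted p from here on). Among all genes tested 13.7% fell and 11.9% rose (25.5% in all), so the share of chaperone genes that fell was 27.5% and the share that rose 2.5%. The genes that fell were HSPA2, HSPD1, DNAJB1, HSPE1, TCP1, CCT6A, AHSA1, CCT5, HSP90AB1, TRAP1 and DNAJA1, and DNAJB4 rose. The other 28 did not pass the test. The point estimate was lower with Dox for 32 of 40, against 48.5% of all genes tested. The median log2 fold change was -0.25, beside 0.02 over all genes tested. In 18 of the 40 every library with Dox lay below every library without, against 20.5% of all genes tested, and in 1 every library with Dox lay above, against 19.0%. The count also depended on 1 library. Without replicate 1 with Dox, 4 of the 40 chaperone genes fell (DNAJB1, HSPA2, HSPD1 and TCP1), beside 9.94% of all genes tested in that fit. The calls depended on the scaling of the libraries too: with library totals alone the median of all genes moved from 0.02 to 0.14, 5 chaperone genes fell (DNAJB1, HSPA2, HSPD1, HSPE1 and TCP1; 9.29% of all genes) and 2 rose (DNAJB4 and HSPB1; 17.8% of all genes).

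**Figure D1:**
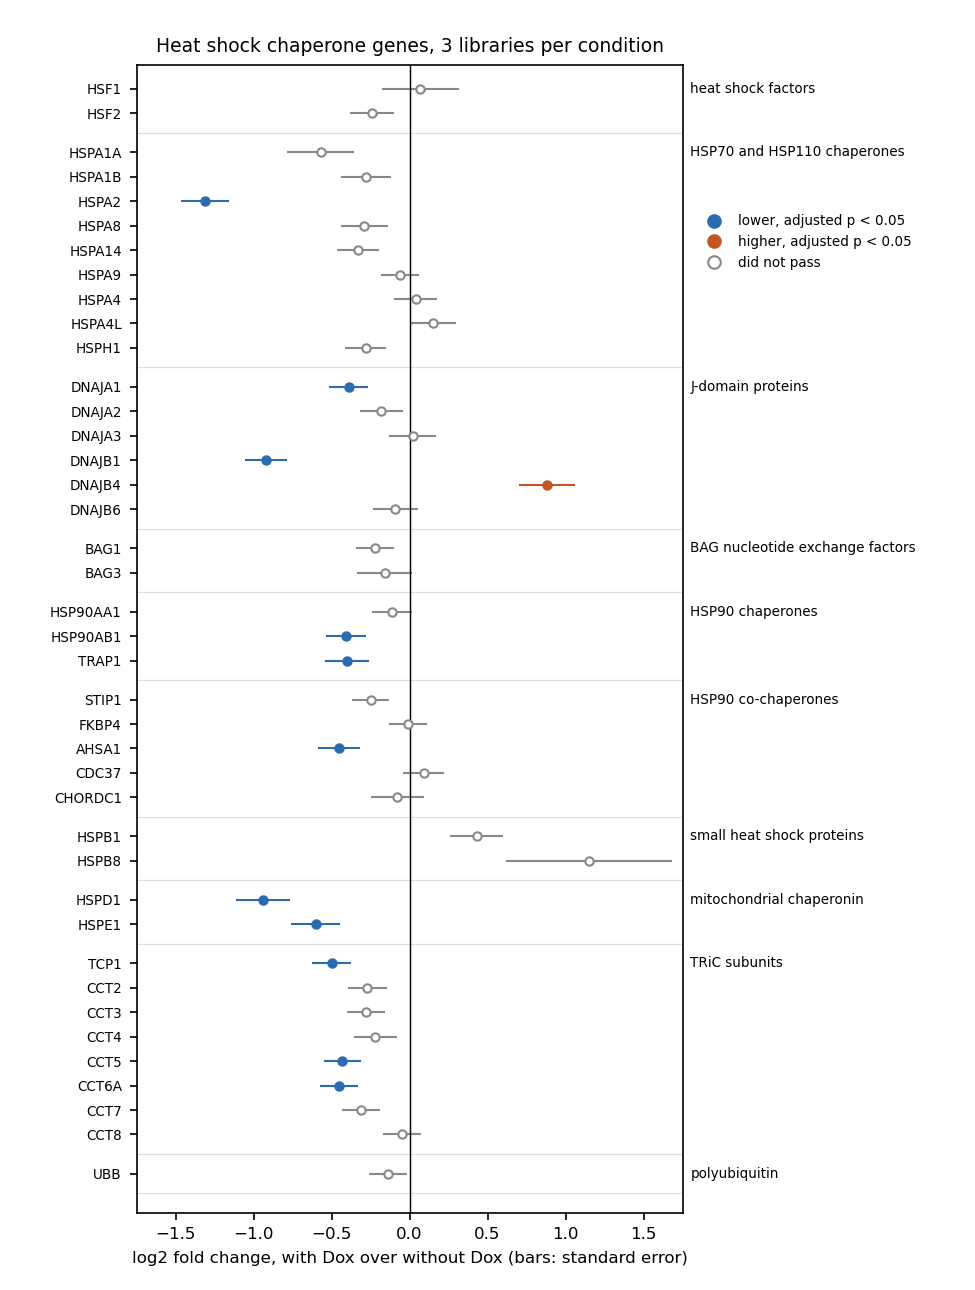
Log2 fold change of each of the 40 chaperone genes, with Dox over without Dox, grouped by role; points are edgeR estimates from 3 libraries per condition and bars are standard errors. Filled points passed an adjusted p under 0.05 (11 lower, 1 higher, against 13.7% and 11.9% of all genes tested). Of the 40 points 32 lie left of 0, against 48.5% of all genes tested.

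These are abundantly expressed genes, and abundant genes fell more often in these libraries. The median of the mean level was 230 CPM (read counts scaled by the library size after TMM normalization) for the chaperone genes and 32.1 CPM for all genes tested. Among the 4590 genes with a mean of at least 50 CPM, a limit chosen after the values were seen, 21.8% fell and 9.67% rose. Of the 34 chaperone genes above that limit 10 fell and 0 rose, with a median log2 fold change of -0.27 beside -0.08 for all genes above it. Summed over the 40 genes, the level was 13784.4, 14464.3 and 13939.4 CPM without Dox and 11501.6, 12057.1 and 11100.8 CPM with Dox, and the conditions did not overlap. That was 0.822 of the level without Dox, while all genes tested summed to 0.919 of theirs on this scale. As a share of raw counts on genes, which does not depend on the scaling, the 40 genes took 1.32%, 1.37% and 1.33% without Dox. With Dox they took 1.19%, 1.25% and 1.16%.

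The libraries held 3394672 to 7271771 counts on genes, and 3 counts, the level that a count of 0 allows, stood for 0.394 to 0.930 CPM. Such floors cover counting error only. ABHD5, the induced gene, was at 63.5, 58.0 and 62.8 CPM without Dox and 126, 131 and 91.7 CPM with Dox, and it rose in every library (log2 fold change 0.91, SE 0.148, edgeR adjusted p = 0.000198). Its level with Dox was lowest in replicate 3. Of the 40 chaperone genes, 18 had their lowest value with Dox and 13 their highest in that library. The prostate luminal markers KLK3, KLK2, FOLH1, HOXB13, TMPRSS2, FOXA1, KRT8, KRT18 and EPCAM all had enough counts to be tested, and PECAM1, VWF and CD3E, of the 9 stromal, endothelial and immune markers, were at 0 in every library. The other 6 of these markers had counts, most in COL1A1 (126 over all libraries) and LUM (91). Nothing states that the 3 libraries of a condition came from separate cultures, so the p-values measure the spread between these libraries, which may be technical. The RNA is bulk, so a lower level in each cell and fewer cells with a high level cannot be told apart.

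The mitochondrial chaperonin had the lowest summed level with Dox relative to without of any role, 0.535 of it, beside 0.919 for all genes tested. HSPD1, the barrel-forming HSP60, was at 1582, 1642 and 1493 CPM without Dox and at 856, 1039 and 567 CPM with Dox. No library with Dox reached the lowest library without, and the 3 libraries with Dox were spread more widely (821 ± 238 CPM against 1570 ± 75.1 CPM, SD, n = 3). HSPD1 fell by 0.94 on the log2 scale (SE 0.172, edgeR adjusted p = 6e-04). HSPE1, the HSP10 lid of the same chamber, was at 144, 158 and 184 CPM without Dox and at 93.1, 90.4 and 136 CPM with Dox. It fell by 0.60 on the log2 scale (SE 0.157, edgeR adjusted p = 0.00976), with replicate 3 with Dox just under the lowest library without. With replicate 1 with Dox left out, HSPE1 no longer passed the test (log2 fold change -0.51, edgeR adjusted p = 0.0692).

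The pair lie on opposite strands of chromosome 2, and by the first RefSeq starts they are head to head, 539 bases apart. The GENCODE gene models (hg38) are HSPD1 chr2:197486584-197516737 on the minus strand and HSPE1 chr2:197500140-197503449 on the plus strand. There HSPE1 lies inside the longer HSPD1 model, and the model starts are 16597 bases apart. Exons of the models overlap on opposite strands, and whether the counting used strand is not stated, so reads in that overlap may be uncertain. The HSPD1 to HSPE1 ratio of raw counts within a library was 11.0, 10.4 and 8.11 without Dox and 9.20, 11.5 and 4.16 with Dox. These ranges overlapped (log2 difference -0.36, exact permutation p = 0.7, two-sided). The upstream 250 bases of HSPD1 from RefSeq (GRCh38.p14) are shown because they hold a heat shock element of linked units, in capitals, at their far end, beside the gene with the second largest fall.
HSPD1, chr2:197499841-197500090 (- strand): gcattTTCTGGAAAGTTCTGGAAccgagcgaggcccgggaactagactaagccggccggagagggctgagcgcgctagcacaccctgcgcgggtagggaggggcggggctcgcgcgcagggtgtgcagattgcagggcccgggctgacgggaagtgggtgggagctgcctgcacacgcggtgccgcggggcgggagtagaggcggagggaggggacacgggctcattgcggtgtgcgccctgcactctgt

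In the HSP70 and HSP110 families 1 of 9 genes fell (11.1%) and 0 rose, beside 13.7% and 11.9% of all genes tested. The other 8 did not pass the test, and the median log2 fold change of the 9 was -0.28. HSPA2, an HSP70 best known from spermatogenic cells, was at 63.7, 66.1 and 64.1 CPM without Dox and at 29.1, 21.4 and 27.1 CPM with Dox. The libraries of each condition lay close together and far from the other condition. Its fall was the largest among the 40 genes, 1.31 on the log2 scale (SE 0.152, edgeR adjusted p = 6.57e-06), to 0.404 of the level without Dox. Across the 6 fits that left out 1 library the log2 fold change stayed between -1.40 and -1.21.

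HSPA8, the constitutive cytosolic HSP70, was at 385, 411 and 403 CPM without Dox and at 377, 365 and 244 CPM with Dox. Every library with Dox was lower, but replicate 3 stood well below the other two, and the difference did not pass the test (log2 fold change -0.29, SE 0.15, edgeR adjusted p = 0.177). Without that replicate the log2 fold change was -0.11 (edgeR adjusted p = 0.587). HSPA14, a ribosome-associated HSP70, had a log2 fold change of -0.33 (edgeR adjusted p = 0.0869), and its lowest library without Dox and its highest with Dox were both at 89.4 CPM. HSPA9, the mitochondrial HSP70, had a log2 fold change of -0.06 (edgeR adjusted p = 0.767). Of the HSP110 exchange factors, HSPH1 had a log2 fold change of -0.28 (edgeR adjusted p = 0.13), HSPA4 of 0.04 (edgeR adjusted p = 0.881) and HSPA4L of 0.15 (edgeR adjusted p = 0.484). For HSPH1 the value was -0.39 without replicate 2 with Dox (edgeR adjusted p = 0.0383) and -0.18 without replicate 3 with Dox (0.351).

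HSPA1A and HSPA1B encode the stress-inducible HSP70 and are near-identical copies 12195 bases apart on chromosome 6 (gene models chr6:31815543-31817946 and chr6:31827738-31830254, both plus strand), so the split of reads between them is uncertain. HSPA1A was at 66.6, 45.0 and 84.3 CPM without Dox and at 52.4, 29.5 and 50 CPM with Dox. HSPA1B was at 135, 95.2 and 124 CPM without Dox and at 99.8, 75.4 and 115 CPM with Dox. For both genes the conditions overlapped, and replicate 2 was the lowest library of each condition. Neither passed the test, with log2 fold changes of -0.57 (SE 0.215, edgeR adjusted p = 0.0609) and -0.28 (SE 0.161, edgeR adjusted p = 0.226). HSPA1A passed it without replicate 2 without Dox (-0.78, edgeR adjusted p = 0.00916) or replicate 3 with Dox (-0.68, 0.0401), and with no filter on low counts, edgeR's exact test or the replicate block. Its estimate was closer to 0 without replicate 3 without Dox (-0.34, edgeR adjusted p = 0.31) or replicate 2 with Dox (-0.37, 0.166). With the counts of the pair added together the log2 fold change was -0.38 (edgeR adjusted p = 0.118), and it passed the test with replicate 2 without Dox left out (-0.54, edgeR adjusted p = 0.0275) or replicate 3 with Dox left out (-0.51, edgeR adjusted p = 0.0398), but was -0.20 with replicate 2 with Dox left out (edgeR adjusted p = 0.362). The ratio of HSPA1A to HSPA1B counts was 0.495, 0.472 and 0.680 without Dox and 0.525, 0.391 and 0.434 with Dox, and the ranges overlapped (log2 difference -0.28, exact permutation p = 0.3, two-sided).

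The upstream sequences of HSPA1A and HSPA1B are shown to let the copies be compared and to set them beside HSPA2, an HSP70 gene that fell. In the RefSeq windows of 300 bases, 277 of 301 aligned columns were identical in the pair (92.0%). Capitals mark GAANNTTC, 2 linked units of a heat shock element, and the CCAAT box, which reads ATTGG on the strand shown. Both copies hold 1 such element and 2 CCAAT boxes, and HSPA2 holds a CCAAT box and no such element in these bases.
HSPA1A, chr6:31815293-31815542 (+ strand): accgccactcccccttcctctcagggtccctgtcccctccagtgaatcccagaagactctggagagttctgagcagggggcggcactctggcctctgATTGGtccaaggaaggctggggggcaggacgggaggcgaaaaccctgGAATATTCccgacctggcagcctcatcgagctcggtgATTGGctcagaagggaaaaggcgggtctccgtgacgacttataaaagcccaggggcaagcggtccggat
HSPA1B, chr6:31827488-31827737 (+ strand): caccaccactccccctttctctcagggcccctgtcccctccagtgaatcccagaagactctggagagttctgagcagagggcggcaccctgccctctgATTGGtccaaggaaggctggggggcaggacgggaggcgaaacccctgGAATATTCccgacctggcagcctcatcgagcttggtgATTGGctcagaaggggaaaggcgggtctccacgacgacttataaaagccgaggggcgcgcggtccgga
HSPA2, chr14:64540491-64540740 (+ strand): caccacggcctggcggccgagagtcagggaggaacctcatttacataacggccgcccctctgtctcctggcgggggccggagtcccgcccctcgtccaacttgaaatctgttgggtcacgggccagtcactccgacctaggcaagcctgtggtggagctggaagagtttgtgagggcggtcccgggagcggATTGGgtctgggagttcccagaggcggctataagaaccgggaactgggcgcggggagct

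Of the 6 J-domain proteins, 2 fell (33.3%) and 1 rose (16.7%), beside 13.7% and 11.9% of all genes tested. DNAJB1, the stress-inducible HSP40 that partners HSP70, was at 271, 330 and 299 CPM without Dox and at 168, 170 and 138 CPM with Dox. The lowest library without Dox was far above the highest with Dox, and DNAJB1 fell by 0.92 on the log2 scale (SE 0.132, edgeR adjusted p = 5.46e-05), to 0.528 of its level. DNAJA1, a cytosolic HSP40 of another class, was at 366, 367 and 412 CPM without Dox and at 314, 304 and 257 CPM with Dox. It fell by 0.39 on the log2 scale (SE 0.126, edgeR adjusted p = 0.0316), without overlap. That call was lost in 5 of the 6 fits that left out a library, with edgeR adjusted p = 0.0666, 0.0544 and 0.114 without replicates 1, 2 and 3 of the cells without Dox, and 0.0557 and 0.0995 without replicates 1 and 3 with Dox.

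DNAJB4, a cytosolic J-domain protein of the same class as DNAJB1, was at 17.5, 14.6 and 19.4 CPM without Dox and at 31.7, 28.1 and 35.2 CPM with Dox. All 3 libraries with Dox were higher, and DNAJB4 was the only one of the 40 genes that rose (log2 fold change 0.88, SE 0.179, edgeR adjusted p = 0.00151), to 1.84 times its level. The ratio of DNAJB1 to DNAJA1 counts within a library was 0.739, 0.899 and 0.725 without Dox and 0.534, 0.559 and 0.534 with Dox. These ranges did not overlap (log2 difference -0.53, exact permutation p = 0.1, two-sided, the smallest that 3 against 3 allows). It was 1 of 4 ratios compared, all chosen after the values were seen, and its p adjusted over the 4 was 0.2 by this exact permutation test. DNAJA2 (log2 fold change -0.18, edgeR adjusted p = 0.373), the mitochondrial DNAJA3 (0.02, 0.941) and DNAJB6, which holds back aggregation (-0.09, 0.677), did not pass the edgeR test. The BAG exchange factors BAG1 and BAG3 did not pass it either (-0.22, edgeR adjusted p = 0.195 and -0.16, 0.536).

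The promoter of DNAJB1 is shown because this gene had the second smallest adjusted p of the 40. Capitals mark 2 copies of GAANNTTC and a CCAAT box (ATTGG on this strand) close to the RefSeq start.
DNAJB1, chr19:14518398-14518647 (- strand): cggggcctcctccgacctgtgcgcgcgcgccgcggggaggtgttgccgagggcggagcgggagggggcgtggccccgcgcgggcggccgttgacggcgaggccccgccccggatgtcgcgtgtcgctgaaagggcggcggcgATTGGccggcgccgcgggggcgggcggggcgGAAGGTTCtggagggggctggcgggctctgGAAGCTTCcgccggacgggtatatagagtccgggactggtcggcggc

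**Figure D2:**
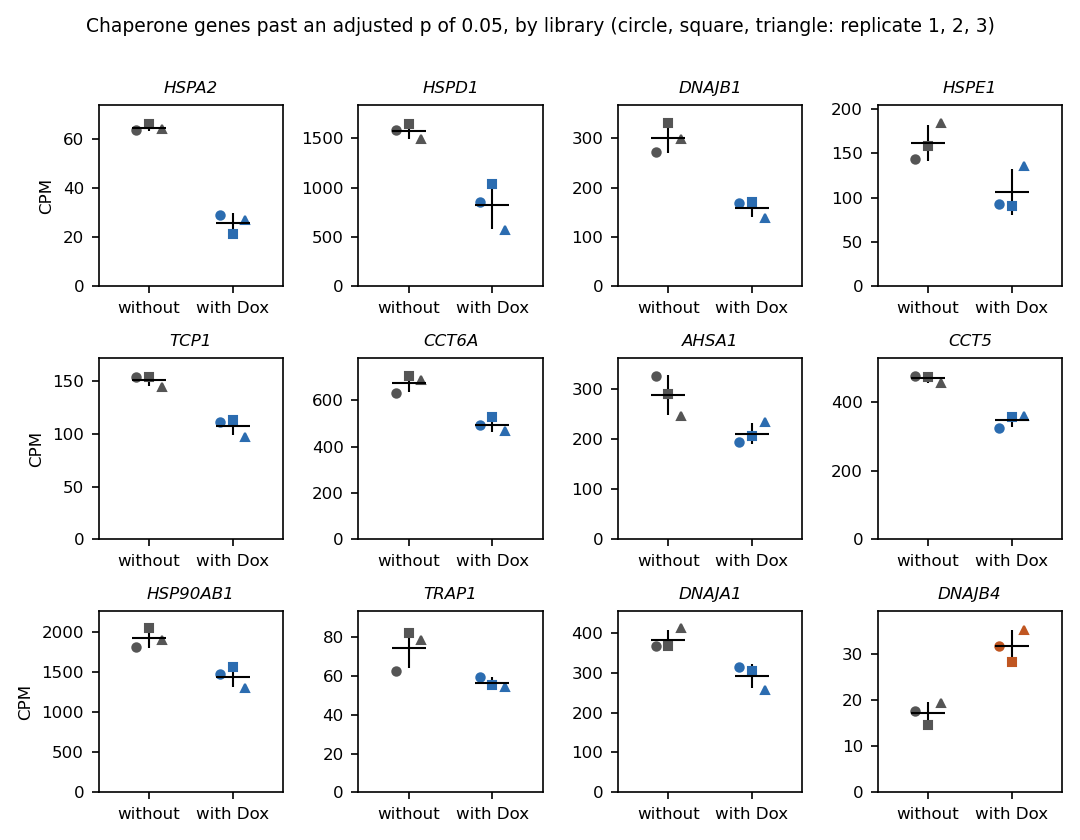
Level in each library, in CPM on axes that start at 0, of the 12 chaperone genes that passed an adjusted p under 0.05; each point is 1 library, horizontal lines are means and vertical lines the SD of 3 libraries. In all 12 genes the libraries with and without Dox do not overlap, with HSPA2 falling most and DNAJB4 alone rising.

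Among the HSP90 chaperones, the constitutive cytosolic form and the mitochondrial form fell, and the stress-inducible cytosolic form did not pass the test. HSP90AB1, the constitutive form, was at 1815, 2049 and 1898 CPM without Dox and at 1476, 1556 and 1296 CPM with Dox. It fell by 0.41 on the log2 scale (SE 0.128, edgeR adjusted p = 0.0252), without overlap. HSP90AA1, the inducible form, was at 2123, 2255 and 2368 CPM without Dox and at 1983, 2327 and 1955 CPM with Dox. Its conditions overlapped through replicate 2 with Dox (log2 fold change -0.11, SE 0.129, edgeR adjusted p = 0.591), and the estimate was 0.01 with library totals alone. The HSP90AB1 to HSP90AA1 ratio of counts was 0.855, 0.909 and 0.801 without Dox and 0.744, 0.669 and 0.663 with Dox. Every library with Dox had a lower ratio (log2 difference -0.31, exact permutation p = 0.1, two-sided; 0.2 adjusted over the 4 ratios), and 0.1 is the smallest p this design allows.

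TRAP1, the mitochondrial HSP90, was at 62.7, 82.2 and 78.2 CPM without Dox and at 59.6, 55.1 and 54.4 CPM with Dox. The lowest library without Dox was close to the highest with Dox (log2 fold change -0.40, SE 0.14, edgeR adjusted p = 0.0444), and exons of TRAP1 overlap those of DNASE1 on the opposite strand, which took 755 counts to the 1839 of TRAP1. Among the 12 calls, those of TRAP1, DNAJA1 and HSP90AB1 were lost under the most alternatives. That of TRAP1 was lost without replicates 2 or 3 without Dox (edgeR adjusted p = 0.155 and 0.13) and without any 1 of the 3 replicates with Dox (0.0817, 0.0683 and 0.0911). It was also lost with library totals alone (edgeR adjusted p = 0.148), upper-quartile scaling (0.0792) or at least 10 counts in every library (0.0585), with DESeq2 (adjusted p = 0.0603) and with limma on the deposited normalized values (adjusted p = 0.0616). That of HSP90AB1 was lost without replicate 2 without Dox (edgeR adjusted p = 0.096), replicate 1 with Dox (0.0738) or replicate 3 with Dox (0.075).

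Of the 5 HSP90 co-chaperones AHSA1, which speeds up the ATPase of HSP90, was the one that fell (20%, beside 13.7% of all genes tested). It was at 326, 289 and 246 CPM without Dox and at 194, 205 and 233 CPM with Dox. The conditions did not overlap, but replicate 3 of each lay closest to the other condition (log2 fold change -0.45, SE 0.134, edgeR adjusted p = 0.0212). The call was lost without replicate 1 without Dox (edgeR adjusted p = 0.123) or replicate 1 with Dox (0.107). Exons of AHSA1 overlap those of VIPAS39 on the opposite strand, which took 649 counts to the 6992 of AHSA1. STIP1, which links HSP70 to HSP90, had a log2 fold change of -0.25 (edgeR adjusted p = 0.138) without overlap. FKBP4, an immunophilin of steroid receptor complexes (-0.01, edgeR adjusted p = 0.948), the kinase-specific CDC37 (0.09, 0.678) and CHORDC1 (-0.08, 0.79) did not pass the test.

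**Figure D3:**
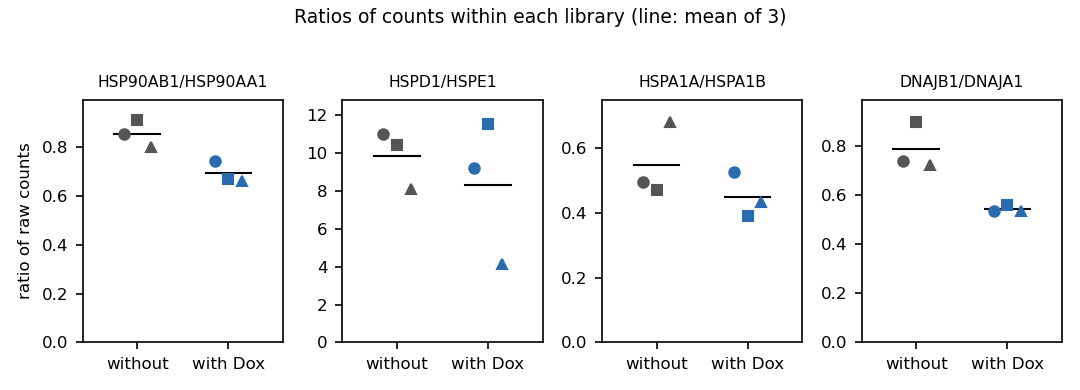
Ratio of raw counts of paired chaperone genes within each library, on axes that start at 0, with lines at the mean of 3 libraries per condition. Ranges with and without Dox do not overlap for HSP90AB1 to HSP90AA1 and for DNAJB1 to DNAJA1, and overlap for HSPD1 to HSPE1 and HSPA1A to HSPA1B.

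All 8 subunits of TRiC had a lower point estimate with Dox, against 48.5% of all genes tested. Of the 8 subunits 3 fell (37.5%), beside 13.7% of all genes tested. Each subunit occupies a fixed place in the ring, and the complex needs them all. TCP1 was at 154, 154 and 145 CPM without Dox and at 111, 113 and 97.5 CPM with Dox, and fell by 0.50 on the log2 scale (SE 0.122, edgeR adjusted p = 0.00585). Exons of TCP1 overlap those of ACAT2 on the opposite strand, which took 382 counts to the 3577 of TCP1. ACAT2 fell too (log2 fold change -1.3, edgeR adjusted p = 0.000643), so TCP1 values may be uncertain where strand was not used. CCT6A was at 632, 702 and 686 CPM without Dox and at 491, 526 and 465 CPM with Dox (log2 fold change -0.45, SE 0.121, edgeR adjusted p = 0.0115). CCT5 was at 476, 473 and 454 CPM without Dox and at 325, 356 and 359 CPM with Dox (log2 fold change -0.43, SE 0.119, edgeR adjusted p = 0.0124). In these subunits all libraries with Dox lay below all libraries without. Without replicate 1 with Dox, neither CCT6A nor CCT5 passed the test (edgeR adjusted p = 0.0527 and 0.0755), and CCT5 also missed it without replicate 1 without Dox (0.0505).

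CCT7 and CCT3 also had lower values in every library with Dox (log2 fold change -0.31 and -0.28), without passing the test (edgeR adjusted p = 0.0686 and 0.0945). CCT7 passed it without replicate 3 with Dox (edgeR adjusted p = 0.0494). CCT2 (-0.27, edgeR adjusted p = 0.135) and CCT4 (-0.22, 0.258) overlapped between conditions. CCT8 was at 212, 253 and 239 CPM without Dox and at 227, 233 and 223 CPM with Dox, and its log2 fold change of -0.05 (edgeR adjusted p = 0.824) became 0.08 with library totals alone and 0.01 with upper-quartile scaling. The 8 subunits together were at 2911.9, 2911.4 and 2944.3 CPM without Dox and at 2330.3, 2302.6 and 2354.3 CPM with Dox, 0.797 of the level. These sums were nearly equal within each condition, and all genes tested summed to 0.919 of the level without Dox.

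As a share of all subunit counts in a library, which does not depend on the scaling between libraries, CCT8 took 7.29%, 8.70% and 8.12% without Dox and 9.75%, 10.1% and 9.46% with Dox. The share of TCP1 was 5.29%, 5.28% and 4.94% without Dox and 4.77%, 4.89% and 4.14% with Dox. CCT8 thus took a larger part of the total in every library with Dox and TCP1 a smaller one, and the shares of the other 6 subunits overlapped. On average the share of CCT8 was 8.04% without Dox and 9.77% with Dox. These shares describe the libraries and were not tested.

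**Figure D4:**
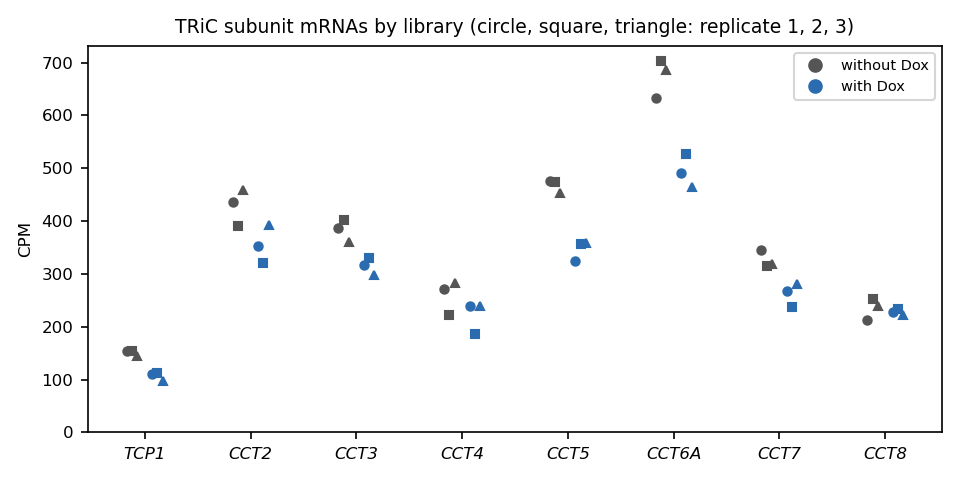
Level of the 8 TRiC subunits in each library, in CPM on an axis that starts at 0; each point is 1 library and its shape the replicate number. For TCP1, CCT3, CCT5, CCT6A and CCT7 all points with Dox lie below all points without, and for CCT2, CCT4 and CCT8 the conditions overlap.

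The small heat shock proteins, which hold unfolded proteins without ATP, had positive estimates that did not pass the test. HSPB1 was at 547, 578 and 448 CPM without Dox and at 614, 567 and 937 CPM with Dox. Replicate 3 with Dox stood apart, and the other libraries overlapped (log2 fold change 0.43, SE 0.169, edgeR adjusted p = 0.0705). Without that replicate the log2 fold change was 0.17 (edgeR adjusted p = 0.409). HSPB1 passed the test with library totals alone (0.56, edgeR adjusted p = 0.0227), with upper-quartile scaling, with no filter and without replicate 2 with Dox (0.57, 0.0143). HSPB8, which works with BAG3 in autophagy of misfolded proteins, had the fewest counts of the 40 genes, with 16, 1 and 27 counts without Dox and 51, 7 and 63 counts with Dox. These are 4.18, 0.31 and 4.71 CPM and 11.1, 1.95 and 8.28 CPM, and replicate 2 was the lowest of each condition (log2 fold change 1.15, SE 0.532, edgeR adjusted p = 0.127). The estimate was 0.70 without replicate 2 without Dox (edgeR adjusted p = 0.32) and 0.76 without replicate 1 with Dox (0.408), and it passed the test without replicate 2 with Dox (1.52, 0.0154). The 1 count in replicate 2 without Dox lay under the 0.930 CPM that a count of 0 allows there.

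The transcription factors of the heat shock response did not pass the test. HSF1 was at 11.0, 7.13 and 9.60 CPM without Dox and at 8.92, 10.3 and 10.1 CPM with Dox, and the conditions overlapped (log2 fold change 0.07, SE 0.246, edgeR adjusted p = 0.867). HSF1 exons overlap those of DGAT1 on the opposite strand, and DGAT1 took 1214 counts to the 275 of HSF1, so its values are uncertain where strand was not used. HSF2, a related factor, had a log2 fold change of -0.24 (edgeR adjusted p = 0.234). UBB, a stress-responsive polyubiquitin gene, was lower in every library with Dox, at 491, 489 and 452 CPM against 493, 562 and 525 CPM, without passing the test (log2 fold change -0.14, edgeR adjusted p = 0.425). HSF1 activity depends on the protein's state and location, which RNA counts do not measure.

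The promoters were searched for heat shock elements, the binding sequence of HSF1 and HSF2. RefSeq windows (250 bases before a start and the first bases after it, 300 in all, GRCh38.p14) were found for 36 of the 40 genes, and HSPA14, FKBP4, HSF1 and CCT6A had none. The motif of 3 linked units (GAA, TTC and GAA, each after 2 free bases, on either strand) occurred in 7 of the 36 genes (19.4%), namely HSPD1, HSP90AB1, HSP90AA1, HSPA8, DNAJA1, DNAJB6 and CHORDC1, beside 0.608% of all genes in the promoter table. In single windows it occurred in 0.490% of 35116. The sites are printed below with up to 10 flanking bases, in capitals where they match, because this is the form that heat shock factors bind as trimers.
HSPD1, chr2:197500058-197500090 (- strand): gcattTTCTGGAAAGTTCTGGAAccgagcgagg
HSP90AB1, chr6:44247768-44247800 (+ strand): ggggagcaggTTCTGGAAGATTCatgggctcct
HSP90AB1, chr6:44247821-44247853 (+ strand): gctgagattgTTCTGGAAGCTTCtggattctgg
DNAJB6, chr7:157336863-157336895 (+ strand): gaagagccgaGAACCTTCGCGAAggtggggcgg
DNAJA1, chr9:33025266-33025298 (+ strand): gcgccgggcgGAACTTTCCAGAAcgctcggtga
CHORDC1, chr11:90223077-90223119 (- strand): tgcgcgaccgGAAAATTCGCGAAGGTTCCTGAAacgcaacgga
HSPA8, chr11:123062344-123062376 (- strand): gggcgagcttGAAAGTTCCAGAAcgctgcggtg
HSPA8, chr11:123062169-123062201 (- strand): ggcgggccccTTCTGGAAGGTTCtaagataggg
HSP90AA1, chr14:102087110-102087142 (- strand): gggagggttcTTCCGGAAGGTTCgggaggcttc

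The elements lay between 245 bases before the start in HSPD1 and 3 bases after it in DNAJA1. HSP90AB1 and HSPA8 had 2 separate sites each, and those of HSPD1 and CHORDC1 were runs in which matches on both strands overlapped. Of these genes HSPD1, HSP90AB1 and DNAJA1 fell, and HSP90AA1, HSPA8, DNAJB6 and CHORDC1 did not pass the test, with log2 fold changes from -0.94 to -0.08 and a median of -0.29. Of the 29 genes with a window and without the motif, 7 fell and 1 rose, with a median of -0.24. HSPE1 counts among these 29 because its window begins at chr2:197500129. The printed HSPD1 site lies just outside that window, between the RefSeq starts of the pair. The shorter motif GAANNTTC, added after the data were seen and contained in each longer match, occurred in 14 of 36 genes (38.9%) beside 8.21% of all genes. Those with the shorter motif only were CCT2, DNAJB1, HSPA1A, HSPA1B, HSPB1, HSPB8 and TCP1, so lacking the longer motif does not mean lacking linked units. A CCAAT box occurred in 15 of 36 (41.7%, beside 39.7%) and TATAAA in 5 of 36 (13.9%, beside 14.0%). A match of letters is not evidence of binding.

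**Figure D5:**
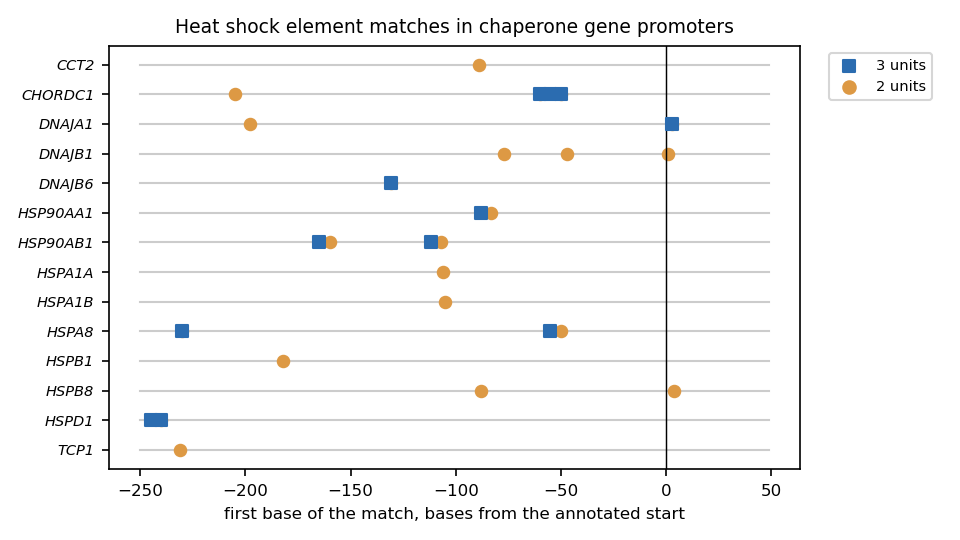
Positions of heat shock element motifs relative to the RefSeq start in chaperone gene promoters that hold them; the horizontal axis is in bases from the start, squares mark the motif of 3 units and circles that of 2 units, which a square hides where both start at the same base. The 3-unit motif is seen in 7 genes, from 245 bases before to 3 bases after the start.

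Other genes of the same pathways were listed by hand, 83 in all, of which 64 passed the filter (median log2 fold change -0.08). Of these, 4 rose (6.25%) and 11 fell (17.2%), beside 11.9% and 13.7% of all genes tested. The same shares of all genes apply to each list below. The other HSP90 co-chaperones held most of the falls, with 8 of 18 lower (44.4%) and a median of -0.22. FKBP5, an immunophilin of steroid receptor complexes, fell by 1.48 on the log2 scale (edgeR adjusted p = 2.84e-07), from 1650 to 593 CPM on average. RUVBL1, an ATPase that acts with HSP90 in assembling large complexes, fell by 0.66 (edgeR adjusted p = 0.000644), and PIH1D1, of the same assembly machinery, by 0.49 (edgeR adjusted p = 0.00619). CDC37L1, a relative of CDC37, rose (log2 fold change 0.45, edgeR adjusted p = 0.0396).

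Of 16 other HSP70 system genes tested, DNAJB5 rose (log2 fold change 0.79, edgeR adjusted p = 0.0353), DNAJC9, a J-domain histone chaperone, fell (-0.74, edgeR adjusted p = 0.000383), and the median was -0.03. Prefoldin, which hands clients to TRiC, and other TRiC cofactors had 0 of 9 genes past edgeR's quasi-likelihood test and a median of -0.01, beside the 3 of 8 TRiC subunits that fell. At an unadjusted p under 0.05 in that test, 1 of the 9 was higher and 0 lower. Of all 12233 genes tested, 2202 were higher and 2305 lower at that limit. In the mitochondrial import motor and proteases 1 of 12 fell, GRPEL1, the exchange factor of mitochondrial HSP70 (-0.58, edgeR adjusted p = 0.00478), and 1 rose, the protease gene SPG7 (0.49, edgeR adjusted p = 0.02), with a median of -0.08. Other target genes of HSF1 had 2 of 8 lower, HMOX1, heme oxygenase (-0.90, edgeR adjusted p = 0.00417), and CACYBP (-0.43, edgeR adjusted p = 0.0158), 0 higher and a median of -0.15. CACYBP is also in the list of other HSP90 co-chaperones and is counted among the 8 that fell there. Of the other small heat shock proteins 1 of 8 passed the filter (median -0.08), as did 1 of 4 other heat shock factors and regulators (-0.12), and neither gene passed the test.

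Markers of proliferation and of the luminal lineage moved with Dox in the same libraries. All 17 proliferation genes tested fell (median log2 fold change -0.90), and their summed level went from 5180.6 to 5643.5 CPM without Dox to 2561.2 to 2965.5 CPM with Dox. Of the luminal markers named above, EPCAM, KLK2, KRT18 and TMPRSS2 fell (log2 fold change -0.52, -1.69, -0.57 and -1.06, edgeR adjusted p = 0.00955, 0.00145, 0.00189 and 0.00505), and the others did not pass the test. The stromal, endothelial and immune markers summed to 4.3 to 8.4 CPM without Dox and 6.1 to 10 CPM with Dox over the 2 that passed the filter, of which COL1A1 rose (log2 fold change 1.22, edgeR adjusted p = 0.0313). COL1A1 overlapped between conditions, at 3.66, 1.55 and 2.09 CPM without Dox and 5.22, 3.62 and 7.62 CPM with Dox. The part of these changes in the lower chaperone levels was not tested.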

How the data were processed

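Libraries were made with a QuantSeq 3′ kit (named FWD in the labels and REV in the study's methods). Per the submitters' processing notes, CASAVA 1.8.2, FastQC, STAR, HTSeq and edgeR were used with hg38; strand use and annotation are not given in the sources used here. The authors deposited a table of raw counts by gene symbol covering the 6 libraries and, per library, a normalized signal whose method is not stated. Rows naming no gene (no feature 32.5% to 39.5%, ambiguous 3.05% to 3.37%) were left out.

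Counts were tested with edgeR 4.0.16 in R 4.3.3 (TMM, filterByExpr, quasi-likelihood test, adjusted p under 0.05, no block), over all 12233 genes. CPM used TMM library sizes. The scripts were tested on simulated data. Alternatives were other scalings, other filters, edgeR's exact test, DESeq2 1.42.0, a replicate block, leaving out each library, and limma 3.58.1 on log2(value + 1) of the deposited normalized signal, where 27 of 27475 rows had other names in 1 file (date-like names) and were left out. Promoters and gene models came from RefSeq GRCh38.p14 and GENCODE 44, read with Python 3.11.15. Gene lists were compiled by hand.

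The 40 genes and the other lists were chosen with earlier results of these data known. Values in every library are given for genes with an adjusted p under 0.05, for HSF1, HSPA1A, HSPA1B, HSP90AA1 and HSPA8 and for genes at or under 3 counts; in each other list, up to 3 genes per direction with the smallest adjusted p were named. CCT8, HSPB1 and UBB were given in full, and the ratios, TRiC shares, the limit of 50 CPM and GAANNTTC were chosen, after values were seen. Same-numbered replicates had correlated deviations of -0.00955, 0.226 and 0.0855 and are not paired by the labels. Counts have no molecular identifiers, so floors cover counting error only. Some genes of the other lists are not reported here.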

Additional observations from a re-analysis of the deposited data

How the results depend on the processing

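Across the 15 alternatives, 5 of the 12 genes that passed the test passed it in all (HSPA2, HSPD1, DNAJB1, TCP1 and DNAJB4), 0 of the 12 changed sign, and 6 of the other 28 passed it under some alternative. The number of genes called over the whole table was 2797 to 3537, and 2181 to 3112 with 1 library left out. Chaperone genes that rose numbered 2 with upper-quartile scaling (14.3% of all genes), 2 with library totals alone (17.8%) and 3 with no filter (8.02%). With a library left out 1 to 3 rose (7.53% to 11.6% of all genes). The 3 were without replicate 2 with Dox, with HSPB1 and HSPB8 added (11.6% of all genes). Those that fell numbered 5 with library totals alone (9.29% of all genes), and 4 to 11 with a library left out (9.71% to 13.1% of all genes). The 4, without replicate 1 with Dox, were DNAJB1, HSPA2, HSPD1 and TCP1 (9.94% of all genes). Of all calls, 46.4% were higher with TMM, 55.6% with upper-quartile scaling and 65.7% with library totals. The median over the chaperone genes was -0.193 with upper-quartile scaling, -0.126 with library totals and -0.23 with at least 10 counts in every library (where HSPB8 was not tested), and -0.262 to -0.221 with a library left out. ABHD5 had a log2 fold change of 0.81 to 1.06 with a library left out. HSPA1A and HSPA1B summed passed the test with no filter (-0.39, edgeR adjusted p = 0.0327), and ranged from -0.54 to -0.20 with a library left out. The cause of these shifts was not tested.

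Estimates that changed sign, none past the test on either side, were with upper-quartile scaling FKBP4 (0.04) and CCT8 (0.01), with library totals HSPA9 (0.06), DNAJB6 (0.03), HSP90AA1 (0.01), FKBP4 (0.11), CHORDC1 (0.05) and CCT8 (0.08), and with at least 10 counts FKBP4 (0.01). With a library left out the ranges that crossed 0 were HSPA4 -0.09 to 0.15, HSF1 -0.07 to 0.18, DNAJA3 -0.08 to 0.13, FKBP4 -0.07 to 0.04, BAG3 -0.33 to 0.03, CDC37 -0.03 to 0.17, CHORDC1 -0.25 to 0.05 and HSPA9 -0.13 to 0.01.

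With the replicate number as a block, 14 chaperone genes fell (HSPA1A, HSPA14 and CCT7 added) and 2 rose (HSPB8 added). In that fit 15.4% of all genes tested fell and 13.5% rose. HSPA1A and HSPA1B summed gave -0.38 (edgeR adjusted p = 0.0168). The labels do not say that a number marks a shared culture. The correlations of same-numbered libraries were not compared with those of other pairs and cannot decide it, so the block is an alternative only.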
